A study of Rattus norvegicus with 8 samples.

Results

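Matrix metalloproteinases (MMPs) are zinc-dependent enzymes that cut collagens and other proteins of the extracellular matrix, and tissue inhibitors of metalloproteinases (TIMPs) bind and block them. Mmp2 and Mmp9 encode the gelatinases, which degrade basement membrane collagen, and Mmp14 encodes a membrane-bound metalloproteinase that activates the Mmp2 proenzyme with the help of Timp2. In the ovary this system is known for remodelling the follicle wall during growth, ovulation and follicle loss. The 6 genes Mmp2, Mmp9, Mmp14, Timp1, Timp2 and Timp3 were examined here, out of 14217 genes named on the arrays. Every probe set whose annotation names exactly 1 of them was taken, which gave 13 of 31099 probe sets, and 0 probe sets named a member together with another gene.

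RNA came from granulosa cells of rat ovarian follicles, which nurse the egg cell and are the main source of oestradiol, and was measured on 8 one-colour Affymetrix arrays. Per the design text, immature rats were given eCG, a gonadotropin that stimulates follicle growth. After 24 h they received either an anti-eCG antibody, which brought on follicular atresia (loss of the follicle) and after which 0% of oocytes developed to term, or pre-immune serum, after which 30 to 50% did. The labels differ between arrays only in a number and place no array in either group, so no comparison between antibody and serum was made. The age, strain and pooling of the animals are not given in the sources used here. Each array is named by its number, and the labels do not say whether the arrays are separate animals or repeats of 1 RNA.

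Granulosa markers were present on every array. Of 10 granulosa markers 9 were measured, and apart from Amh on 1 array all 9 lay above the floor of low signal everywhere. This floor is the 40th percentile of an array, at 273.8 to 473.1 signal units, and lower values have no reliable order. A gene was called measured where 2 or more arrays had 1 of its probe sets above their median signal, which held for 10513 genes. Markers of other cells were partly present. In the theca and stroma list 8 of 10 genes were measured, with Cyp17a1 at the floor on 5 arrays and Tagln on all 8. In the leukocyte list 8 of 10 were measured, with Ptprc at the floor on all 8 arrays, and in the endothelial list 4 of 8. Of 7 neutrophil markers 4 had a probe set and 0 were measured. Of 7 oocyte markers 5 had a probe set, Zp2 and Gdf9 were measured, and Zp1 was at the floor on all 8 arrays. Arrays 2074 and 2076 stood apart from arrays 2194 to 2199, with 13.6% of measured genes higher on both than on any of the other 6 and 14.5% lower. Ranges and relations are therefore also given within arrays 2194 to 2199.

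Of the 13 member probe sets, 8 passed the measured rule, and they covered 5 of the 6 genes. Both probe sets of Mmp9 lay under the floor on all 8 arrays. Their signals were 16.2 to 231.8 for 1369166_at and 21.2 to 46.5 for 1398275_at, so no Mmp9 level or spread could be read. The other 3 probe sets that did not pass were 1369825_at of Mmp2 (56.0 to 763, under the floor on 5 arrays), 1367823_at of Timp2 (126.7 to 949.1, under it on 4) and 1368989_at of Timp3 (31.8 to 222.9, under it on all 8).

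**Figure D1:**
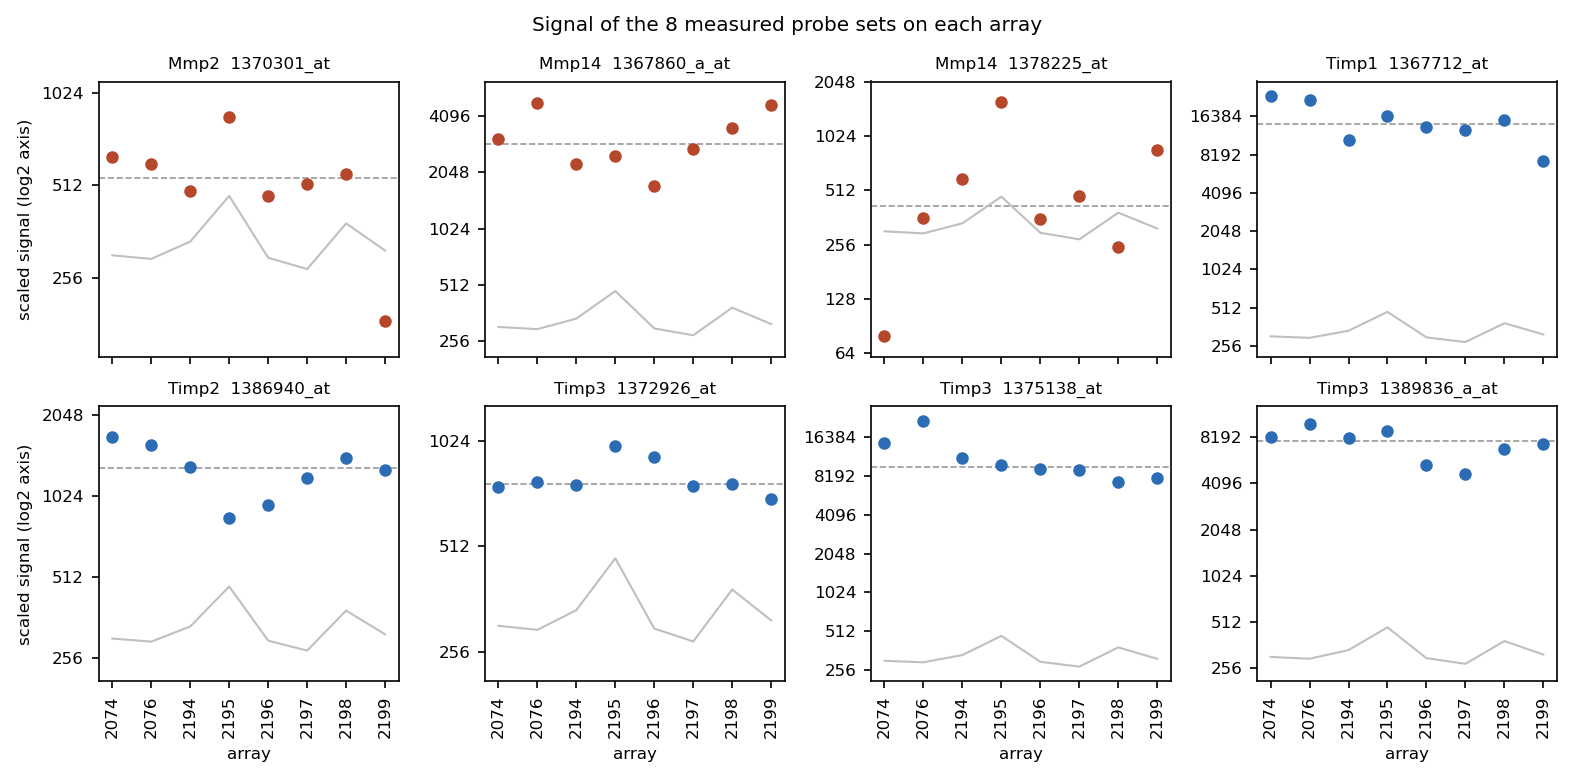
Scaled signal (log2 axis, signal units) of the 8 measured probe sets on the 8 arrays, with proteases in red and inhibitors in blue. The dashed line is the probe set's median and the grey line the floor of each array; Timp1 and both brighter Timp3 probe sets sit far above the floor on all 8 arrays, while Mmp2 lies close to it and below it on array 2199.

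Among the proteases, Mmp14 was measured clearly and Mmp2 barely. Mmp14, by its brighter probe set 1367860_a_at, gave signals of 3104, 4849, 2270.4, 2514, 1736, 2725, 3529 and 4738 on arrays 2074, 2076, 2194, 2195, 2196, 2197, 2198 and 2199, and all series of 8 values below run in this order. The highest values were on 2076 and 2199 and the lowest on 2196. Arrays 2194, 2195, 2196 and 2197 all lay below 2074 and 2076, while 2198 and 2199 lay above 2074. The spread of a gene is given as its inner range, the second highest over the second lowest array, which sets aside the single highest and lowest array. For Mmp14 it was 2.09-fold, wider than in 74.6% of measured genes, and within arrays 2194 to 2199 it was 1.55-fold.

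The second measured Mmp14 probe set, 1378225_at, did not follow the first. It gave 79.4, 361.9, 594.4, 1589.6, 356.9, 475.1, 249.4 and 856.4 and was under the floor on 2 arrays. Its values did not track those of 1367860_a_at (Pearson r = -0.02 over 8 arrays, as a description), with its highest value on 2195 and its lowest on 2074. The inner range of at least 2.40-fold for this probe set thus describes another order of arrays.

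Mmp2, which encodes gelatinase A, was read from 1370301_at at 635.5, 601.4, 492, 856.6, 472.5, 519.3, 559.6 and 185.1. By signal only array 2195 stood clearly above the rest, and array 2199 was under the floor. Array 2195 also had the highest floor, at 473.1 against 273.8 to 385.3 on the others. The signals lay between 0.589 and 2.09 times the array's floor, with the highest multiple on 2074 and not on 2195. The high signal on 2195 is thus not clear of that array's raised low end. Its inner range of 1.35-fold was narrow, wider than in 13.0% of all measured genes and in 1.71% of genes of like mean signal. Most genes this weak varied more over the same arrays.

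By their brightest probe sets, the 3 member inhibitors each lay above all of arrays 2194 to 2199 on both 2074 and 2076. Mmp14 and Mmp2 did not. This did not divide inhibitors from proteases in general. Outside the members, the proteases Mmp11 and Mmp23 and the inhibitor A2m were also above, and the inhibitor Reck was below. For Mmp11 the gap was very small, with 937.4 on 2074 against 916.5 on 2195. Timp1, a soluble inhibitor of many MMPs, gave 23766, 22058, 10769.7, 16638, 13441, 12899.9, 15376 and 7313. The lower of the pair was 1.33 times the highest of the other 6, and 2199 was the lowest array. Timp3, the inhibitor that binds to the matrix, gave 14662, 21649, 11306, 9873, 9187, 9100, 7301 and 7904 by 1375138_at. Here the lower of the pair, 2074, was 1.297 times the highest of the other 6. Timp2, which both inhibits MMPs and takes part in Mmp2 activation, gave 1693, 1579, 1311, 851.2, 947.3, 1191, 1419 and 1279 by 1386940_at. Its gap was small, at 1.11 times. Set against the median of arrays 2194 to 2199, the geometric mean of 2074 and 2076 was 1.74-fold for Timp1, 1.95-fold for Timp3 and 1.33-fold for Timp2. For the proteases it was 1.48-fold for Mmp14 and 1.22-fold for Mmp2, with overlap.

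The count was 3 of 5 measured members above on both arrays and 0 below, against 13.6% and 14.5% of all measured genes. The same 3 genes were counted under each of the 13 alternatives of scaling, floor, filter, probe set rule or left-out array, and Mmp2 joined them under quantile normalization or without array 2195. The labels name neither a treatment nor a batch for this pair, and the cause of the difference was not tested. Other genes also differed on this pair. Hbb, the beta chain of haemoglobin, gave 45911 and 12630.0 on 2074 and 2076, against 3726 to 9709.8 on arrays 2194 to 2199. Of 8 measured theca and stroma markers 1 (Col1a2, at 1944 and 1197, against 191.3 to 794.3) was above on both, as were 2 of 9 granulosa markers (Inha and Foxl2) and 2 of 4 luteinization markers (Scarb1 and Prlr). Of 8 measured leukocyte markers 0 were above, and 1, Csf1r, was below, at 180.1 and 527.9, against 875.3 to 1899.7. Summed over the measured markers, theca and stroma signal ran from 3463 on 2194 to 7999.7 on 2198, and leukocyte signal from 5900.0 on 2197 to 10041 on 2074. The theca and stroma score, the mean log2 distance of its genes from their medians, was 0.59 on 2074 and 0.03 on 2076, against -0.27 to 0.55 on arrays 2194 to 2199. Their part in the inhibitor signals was not tested. In bulk RNA, fewer cells of a type and less RNA per cell cannot be told apart.

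Timp3 had 3 measured probe sets, and only 1375138_at set the pair 2074 and 2076 apart. The next, 1389836_a_at, gave 8199, 9982, 8100.5, 8956, 5424, 4689, 6824 and 7411, with 2195 above 2074, and correlated with the first at r = 0.60 over 8 arrays. The dimmest, 1372926_at, gave 698.4 to 989.2 with an inner range of 1.22-fold and r = -0.05 against the first. The order of arrays for Timp3 thus depended on the probe set, whereas Timp1 had 1 probe set and Timp2 a single one that passed.

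Upstream sequences were sought for all 6 members and are shown for the 3 inhibitors, the only members with an entry. RefSeq sequences of 250 bases before the start of each gene (build GRCr8) were found for 3 of the 6 genes, Timp1 (chrX:3771123-3771372, minus strand), Timp2 (chr10:104089215-104089464, minus strand) and Timp3 (chr7:19459559-19459808, minus strand). Each is given 5′ to 3′ on the gene's strand, and capitals mark matches to GGGCGG (the GC box) and CCAAT, searched on both strands.
Timp1: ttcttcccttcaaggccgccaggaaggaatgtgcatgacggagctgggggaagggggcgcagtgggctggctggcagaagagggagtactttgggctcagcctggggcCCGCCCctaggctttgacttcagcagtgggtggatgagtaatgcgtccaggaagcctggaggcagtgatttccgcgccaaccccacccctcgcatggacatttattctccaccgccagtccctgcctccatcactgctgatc
Timp2: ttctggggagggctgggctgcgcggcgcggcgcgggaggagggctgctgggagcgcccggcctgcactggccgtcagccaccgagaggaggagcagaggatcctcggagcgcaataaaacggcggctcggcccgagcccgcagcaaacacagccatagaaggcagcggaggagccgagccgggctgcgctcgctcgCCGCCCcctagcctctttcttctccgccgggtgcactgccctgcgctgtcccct
Timp3: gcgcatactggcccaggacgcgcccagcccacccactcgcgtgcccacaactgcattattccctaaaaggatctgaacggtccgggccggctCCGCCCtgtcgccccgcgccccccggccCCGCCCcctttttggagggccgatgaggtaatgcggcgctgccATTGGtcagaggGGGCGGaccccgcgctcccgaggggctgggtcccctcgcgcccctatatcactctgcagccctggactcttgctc
All 3 held GGGCGG or its reverse complement, as did 30.5% of 33469 rat promoters of the same length. Timp3 held 3 copies, the outermost starting 158 and 75 bases before the start of the gene, and Timp1 and Timp2 held 1 each. Timp3 also held CCAAT, found in 34.0% of promoters. TGANTCA, the AP-1 motif (6.34% of promoters), and TATAAA (12.9%) had no match in these 3 windows, and the searched motifs did not overlap. The windows held 61.2% G and C in Timp1, 72.0% in Timp2 and 69.6% in Timp3, against a median of 51.2% over all promoters. A match is a string of letters and not a tested site.

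Members and all genes were also set side by side for spread. Among the 5 measured members 2 (Mmp14 and Timp1) reached an inner range of 2-fold, against 29.8% of all 10513 measured genes. The median inner range was 1.86-fold over the 5 members and 1.71-fold over all measured genes. Timp1 had 2.05-fold, Timp3 1.86-fold and Timp2 1.67-fold, wider than in 72.9%, 60.8% and 45.7% of genes. The count rested on single arrays, and the share of all genes also fell without them. Without array 2076, 2194 or 2199 the count was 0, beside 18.7%, 24.6% and 23.9% of all genes. Without 2074 or 2196 the count was 1, beside 18.8% and 25.1%. Over arrays 2194 to 2199 the count was 0, beside 11.5% of all genes. The median there was 1.38-fold for the members and 1.41-fold for all genes. Within arrays 2194 to 2199 the inner range was 1.43-fold for Timp1, 1.38-fold for Timp2, 1.25-fold for Timp3 and 1.18-fold for Mmp2. An inner range over fewer arrays tends to be narrower by construction.

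**Figure D2:**
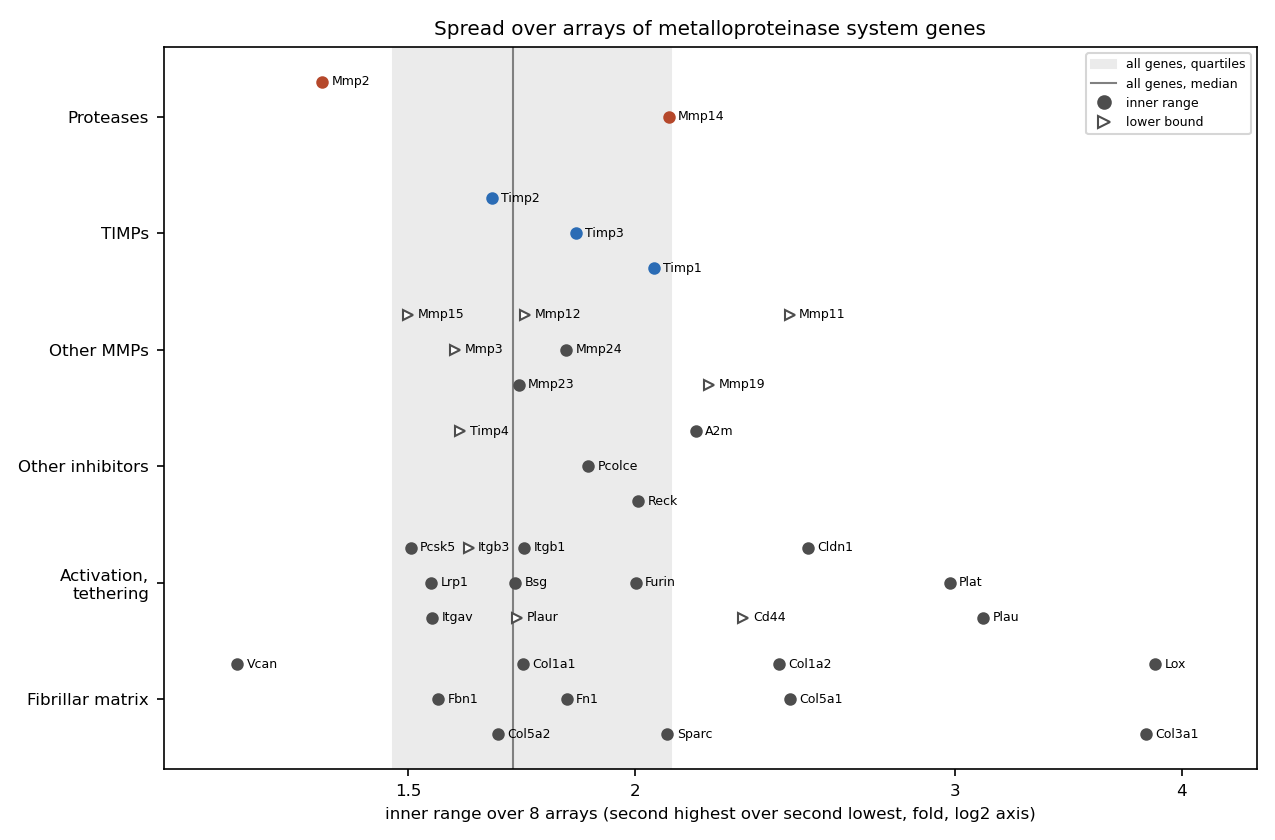
Inner range over 8 arrays (fold, log2 axis) of every measured gene of the metalloproteinase lists, with open triangles where it is a lower bound. The line and band are the median (1.71-fold) and quartiles of all measured genes; Mmp2 (1.35-fold) lies left of the band, and Timp2, Timp3 and Timp1 lie inside it.

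Relations among the members were computed for 10 pairs, and 0 passed an exact two-sided permutation test after Benjamini-Hochberg adjustment at 0.05, with 1 under 0.05 before adjustment by either measure. That pair was Mmp2 and Timp1, with Pearson r = 0.79 (exact permutation p = 0.0258, adjusted 0.258) and Spearman rho = 0.86 (exact p = 0.0107, adjusted 0.107) over 8 arrays. Within arrays 2194 to 2199 r was 0.90 (exact permutation p = 0.0194, adjusted 0.194), and without arrays 2195 and 2199, the farthest from the Mmp2 median, it was 0.92. The pair was called under quantile normalization (adjusted p = 0.0407 by the exact permutation test) and without array 2195 (0.0179). Over 14 alternatives its r ranged from 0.54, without array 2199 alone, to 0.92, without array 2195 alone. Mmp2 is weak on these arrays, and on 2199 it stood at the floor where Timp1 had its lowest value.

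Timp1 and Timp3 came next by Pearson r, with r = 0.67 and rho = 0.57 (exact permutation p = 0.0707 and 0.151, adjusted 0.341 and 0.504). Their r was 0.60 without arrays 2074 and 2199. Within arrays 2194 to 2199 r was 0.09 (exact permutation p = 0.868), so the relation over 8 arrays rests on arrays 2074 and 2076. The other 8 pairs had r between -0.23 and 0.62. Mmp14 and Timp2, which act together on the Mmp2 proenzyme, had r = 0.62 and rho = 0.60 (exact permutation p = 0.102 and 0.132, adjusted 0.341 and 0.504), 0.57 within arrays 2194 to 2199, and 0.33 without arrays 2076 and 2196. A p above the threshold with 8 arrays does not show that a pair is unrelated.

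**Figure D3:**
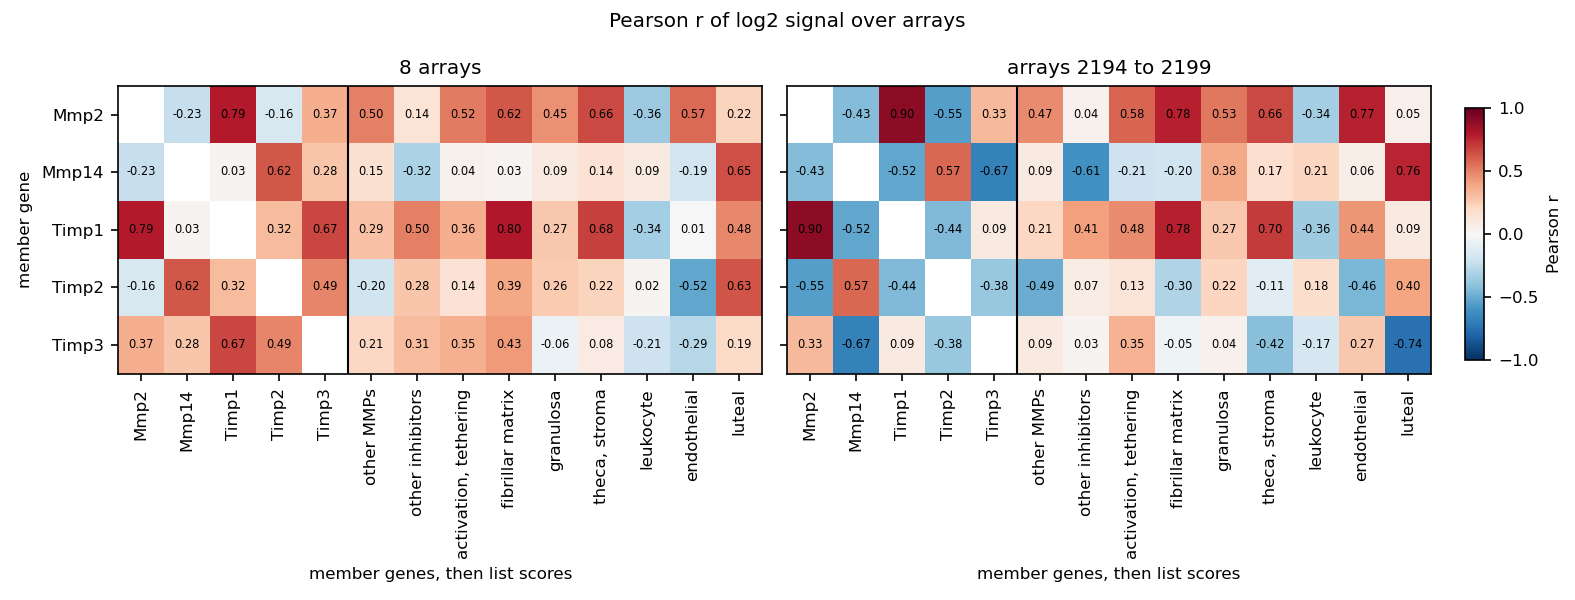
Pearson r of log2 signal over all 8 arrays (left) and over arrays 2194 to 2199 (right), for each pair of measured members and for each member with the score of a gene list. Mmp2 and Timp1 have 0.79 and 0.90, while Timp1 and Timp3 have 0.67 on the left and 0.09 on the right.

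Protease signal was also set against inhibitor signal within each array, as a log2 ratio minus its median over arrays, since the MMP to TIMP balance is a common measure of this system. The ratio of Mmp14 to Timp2 was -0.38, 0.36, -0.46, 0.31, -0.38, -0.06, 0.06 and 0.64, an inner range of 1.68-fold with 2199 highest and 2194 lowest. The ratio of Mmp2 to Timp2 was -0.05, -0.03, -0.05, 1.38, 0.36, 0.17, 0.03 and -0.66. It was close to its median on most arrays, high on 2195, where Mmp2 was highest and Timp2 lowest, and low on 2199. Array 2195 also has the highest floor, and Mmp2 lies close to the floor. Mmp2 was under the floor on 2199 and was raised to it, so the ratios there are upper limits. The inner range was 1.33-fold, while the highest array over the lowest was at least 4.09-fold. The ratio of Mmp2 to Timp3 was -0.77 on 2076 and 0.87, its highest, on 2195, with at most -0.25 on 2199. Its inner range was at least 1.93-fold, and 2.76-fold with no floor. The inner ranges within arrays 2194 to 2199 were 1.61-fold for Mmp14 to Timp2, 1.33-fold for Mmp2 to Timp2 and 1.76-fold for Mmp2 to Timp3. These ratios show unequal change between 2 genes and not the level of either, and Mmp9 to Timp1 was left out because Mmp9 was under the floor.

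**Figure D4:**
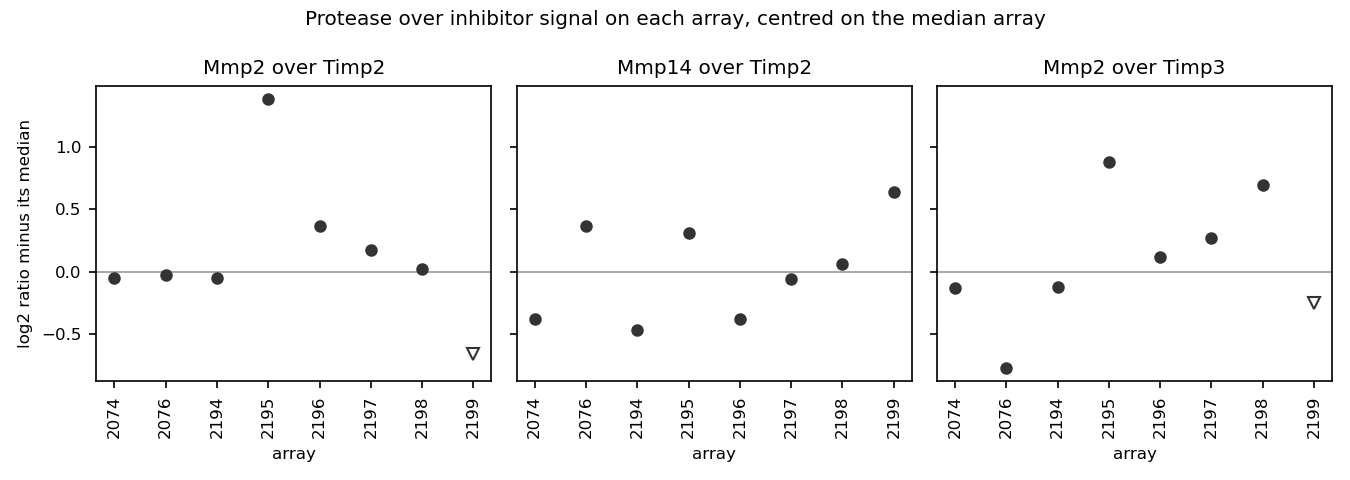
Log2 ratio of protease to inhibitor signal on each array, centred on its median (line at 0). Mmp2 over Timp2 departs most on 2195 (1.38) and 2199 (at most -0.66), and open triangles are upper limits, where Mmp2 was under the floor. The ratio of Mmp14 over Timp2 is highest on 2199 (0.64).

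Of 19 other metalloproteinase genes listed, 7 were measured, 7 were not and 5 had no probe set with a single name. With lower bounds counted at their bound, 2-fold was reached by 2 of the 7, beside 29.8% of all measured genes. These were Mmp11 (stromelysin 3, at least 2.43-fold) and Mmp19 (at least 2.20-fold). Mmp15, another membrane-type enzyme, had a lower bound just short of 1.5-fold, which gives it no rank. Mmp3, Mmp12, Mmp15 and Mmp19 were under the floor on 3 to 6 arrays. Mmp23 was above the floor on all 8 arrays, at 2979 and 2432 on 2074 and 2076, against 1217 to 1915 on arrays 2194 to 2199. Mmp24 was also above it throughout (335.0 to 1103). Of 7 measured genes 2 were above on both 2074 and 2076 (Mmp11 and Mmp23) and 1 below (Mmp19). Mmp11 counts as above by little, with 937.4 on 2074 against 916.5 on 2195, the array with the highest floor. Mmp19 counts as below only with values raised to the floor, since its signal on 2198 (187.5) was lower than on 2074 (291.1).

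The list of other inhibitors was split over the same arrays. Of its 4 measured genes, A2m was above on 2074 and 2076 and Reck was below. Pcolce, in the list though it encodes an enhancer of procollagen processing, was also above. Timp4 was under the floor on 6 arrays, 2074 and 2076 among them, so its order is not read. A2m, which encodes the broad protease trap alpha-2-macroglobulin, gave 9328 and 12898 on 2074 and 2076, against 2542 to 8131 on the other 6, with an inner range of 2.16-fold. Reck, a membrane-anchored MMP inhibitor, gave 2935 and 3572 on the pair, against 4030.0 to 7199. The inner range of Timp4 was at least 1.60-fold.

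Among 15 genes for activation, tethering and uptake of MMPs, 12 were measured and 5 reached 2-fold. Plau, the urokinase that generates plasmin, had 3.11-fold, with 2552 and 1039.5 on 2074 and 2076, against 2852 to 8199 on the other 6. Pcsk5, a proprotein convertase, had 1.504-fold. In the fibrillar matrix list 10 of 10 genes were measured and 5 reached 2-fold, beside the same 29.8%. Inner ranges in this list ran from Vcan (versican) at 1.21-fold to Lox, the collagen cross-linking enzyme, at 3.87-fold. In the marker lists the genes with the largest and smallest computed values, in which an "at least" value has no true rank, were Cyp19a1 (4.20-fold) and Nr5a2 (1.24-fold) for granulosa cells, Col3a1 (3.82-fold) and Dcn (at the floor on 4 arrays) for theca and stroma, Csf1r (3.33-fold) and Cd14 (1.60-fold) for leukocytes, Tek (at least 3.07-fold) and Emcn (at least 1.78-fold) for endothelium, Gdf9 (2.51-fold) and Zp2 (at least 2.49-fold) for oocytes, Hbb (2.16-fold) and Alas2 (at least 1.93-fold) for red cells, and Lhcgr (3.67-fold) and Star (1.57-fold) for luteinization.

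The 5 measured members were set against the scores of 9 lists, which made 45 relations, and 0 passed the exact two-sided permutation test after Benjamini-Hochberg adjustment, with 1 by Pearson and 5 by Spearman under 0.05 before it. Scores were formed as above, without the members. The strongest was Timp1 with the fibrillar matrix score, at r = 0.80 and rho = 0.90 (exact permutation p = 0.0181 and 0.00456, adjusted 0.815 and 0.161). Within arrays 2194 to 2199 it had r = 0.78 and rho = 0.94, and r was 0.64 without arrays 2074 and 2199. Mmp2 had r = 0.62 and rho = 0.86 with the same score (exact permutation p = 0.113 and 0.0107, adjusted 0.839 and 0.161). Its r within arrays 2194 to 2199 was 0.78 (exact permutation p = 0.0431, adjusted 0.781). Timp1 had r = 0.68 and rho = 0.88 with the theca and stroma score (exact permutation p = 0.068 and 0.00724, adjusted 0.816 and 0.161), and r = 0.61 without arrays 2074 and 2198. This list shares Col1a1, Col1a2 and Col3a1 with the matrix list. Mmp2 had r = 0.66 with the theca and stroma score, and Mmp14 and Timp2 had r = 0.65 and 0.63 with the luteinization score (exact permutation p = 0.0608, 0.0816 and 0.0906, adjusted 0.816 each). Without the 2 arrays farthest from the median score, r was 0.83 for Mmp2 (without 2074 and 2198) and 0.81 for Timp2 (without 2194 and 2196). With no floor the Mmp2 value was 0.53, and under quantile normalization it was 0.51. For Timp1 with the theca and stroma score these were 0.74 and 0.77. On array 2195, where Mmp2 was highest, that score was 0.40 with the floor and -0.03 without it. The Mmp14 value was 0.02 without arrays 2194 and 2196, on which it therefore rests, and 0.16 with the mean of its probe sets in place of the brighter one. These r values within arrays 2194 to 2199 were 0.70 for Timp1 and 0.66 for Mmp2 with theca and stroma, and 0.76 for Mmp14 and 0.40 for Timp2 with luteinization.

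The genes whose log2 signals ran most like each member over the 8 arrays were ranked by Pearson r among 10512 others, as a description. For Timp1 these were Man2b1 (r = 0.99), Mvd (0.99) and Clk2 (0.98), for Timp3 Eif4g1 (0.98), Smg8 (0.97) and Cnpy2 (0.97), and for Timp2 Rbck1 (0.99), Col5a1 (0.98) and Flot2 (0.97). For Mmp14 they were Atpaf2 (0.95), C1r (0.93) and Nr2f2 (0.92), and for Mmp2 Kif18b (0.97), Pim3 (0.96) and Fkbp11 (0.96). Within arrays 2194 to 2199 the 3 genes for Timp3 had r of 0.80 to 0.90, and the other 12 had 0.89 to 0.998. The genes were picked by r over 8 arrays that include these, so a high r there follows in large part from the choice. An r over 0.9 was reached by 78 genes for Timp1, 69 for Timp3, 34 for Timp2, 27 for Mmp2 and 8 for Mmp14. How many unrelated genes would reach it with so few arrays was not computed, so these counts are not read further.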

How the data were processed

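The extract was total RNA and the label was biotin, with 1 array hybridised per sample. The deposited table gives each probe set's intensity (linear), computed by the authors with MAS5 per the submitters' processing notes (version not given in the sources used here). Trimmed means (2% off each end) were 1500.5 to 1500.6 on every array. The 57 control probe sets were left out, log2 was taken without a pseudocount, and each array was shifted so that the probe sets brighter than the array median on all 8 arrays had an equal median. Values under the 40th percentile were raised to it for ranges and relations; printed signals are scaled but not raised. A gene was read from its brightest probe set. Symbols were checked by gene identifier in a table of GRCr8 (20764 of 20832 found, 0 changed). Array pairs correlated at 0.762 to 0.892, with 0 identical.

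Relations used Pearson and Spearman coefficients with exact two-sided permutation tests over 40320 orders (720 for 6 arrays), in Python 3.11.15 with numpy 2.4.6 and pandas 2.3.3, tested on simulated data. Promoters are RefSeq's. All arrays are unassigned, so no test between groups was made, and precision is limited by how few arrays there are. Named are all member probe sets, the 3 genes most like each member, and the gene with the largest and the smallest computed range in each list plus markers under the floor on all arrays; other genes were named after their values were seen. Members and lists were chosen with earlier results of these data known. Alternatives were no scaling, quantile normalization, other floors and filters, the mean of probe sets, the full range, leaving out each array, and arrays 2194 to 2199 alone.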

Additional observations from a re-analysis of the deposited data

Results flagged for a closer look

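Of 20 values tested (8 probe sets, 3 protease to inhibitor ratios and 9 list scores), 3 list scores and 0 member probe sets had 1 array far from the other 7, by a gap, as a share of the whole range, above Dixon's critical value for 8 values. About 1 in 20 such values passes by chance, and the arrays are not replicates of a known group. The fibrillar matrix score had array 2074 highest (0.536 of the range), also without the floor (0.560). The leukocyte score had 2197 lowest (0.561) and the endothelial score 2195 highest (0.591), and both were below the limit without the floor (0.217 and 0.261). Array 2195 has the highest floor.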

How the results depend on the processing

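The count of member genes at 2-fold (2 of 5, against 29.8% of all genes) was 4 with the full range, against 71.4% of all genes. It was 0 to 2 when 1 array was left out, against 18.7 to 25.1%. Over arrays 2194 to 2199 it was 0, against 12.0% of the genes measured on those arrays. Under the other 7 alternatives it was within 1.5 times, against 19.3 to 39.6% of all genes. By probe set the count (3 of 8) was 6 with the full range, 0 to 3 without 1 array and 1 over arrays 2194 to 2199. The share over all measured probe sets was not computed. These probe set counts are therefore not read as a result about the members. Of 126 recomputed inner ranges of single probe sets, 121 stayed within 1.5 times. The exceptions were 4 full ranges (Mmp2 at least 2.72-fold, Mmp14 1378225_at at least 5.24-fold, Timp1 3.25-fold, Timp3 1375138_at 2.97-fold) and Timp3 1375138_at over arrays 2194 to 2199 (1.23-fold). The 3 TIMPs above on 2074 and 2076 became 3 to 4 members over 13 alternatives, against 10.1 to 17.2% of all genes. Member pairs called (0 of 10) became 1 under quantile normalization and 0 to 1 when 1 array was left out. Relations to lists (0 of 45) became 3 of 66 with no filter, all of Mmp9, which is under the floor everywhere and so carries the arrays' floor values by construction. No paired analysis was possible because no array has a group. Low signal limits the weak probe sets: 5 of 13 did not pass the measured rule, both of Mmp9 among them.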
